A study of Prunus dulcis and Malus domestica and Olea europaea with 8 samples.

Results

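The tomato profile is the set of microRNA (miRNA) counts of 1 small RNA library, made from the edible portion of tomato (Solanum lycopersicum). It is 1 of 8 libraries in the series. The members were taken by the label of the library, and each miRNA gene and family was read as a percent of all miRNA counts in tomato and set beside the median and range of the other 7 foods. Of the 209 miRNA genes that were annotated, 106 had at least 1 count in tomato, and they belonged to 52 of 88 families, a family being the number in the gene name. The other foods were almond (Prunus dulcis), apple (Malus domestica), olive (Olea europaea), orange (Citrus sinensis), pear (Pyrus communis), spinach (Spinacia oleracea) and walnut (Juglans regia). Each library came from an edible portion, with 1 library per food and no treatment named. The methods state purchase in supermarkets for tomato and the other foods except almond, which they do not mention. The tomato input was 0.1 g of tissue. The labels and the methods give neither the cultivar nor the ripeness of the fruit.

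Every library was aligned to the peach genome (Prunus persica NCBIv2), so only miRNA genes that peach has could be counted. A family of tomato alone could not appear, and the label could not be checked against tomato markers. The gene names below are those of peach genes and stand for tomato reads that fit them. How reads that fit several near-identical copies were assigned is not given in the sources at hand, so levels of single copies are less certain than family levels. Each food has 1 library, so no test between foods was possible and no p-value is given. The 95% intervals (exact Clopper-Pearson, from counts) cover counting error only, and PCR copies are counted as reads. In a bulk sample, fewer cells of a type and less RNA per cell cannot be told apart.

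Plant miRNAs are short RNAs, cut from a hairpin precursor by DICER-LIKE1, that guide ARGONAUTE proteins to matching mRNAs. Many conserved families target transcription factors. In the plant life cycle miR156, which targets SPL factors, is high in juvenile tissue, and miR172, which targets AP2-like factors, is high in adult tissue. In tomato the SPL gene Colorless non-ripening and the AP2 gene AP2a are known regulators of ripening, while miR164 targets NAC factors that act in organ boundaries and in fruit.

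Mature sequences were at hand for a pair of miRNAs only, and they are shown because the gene of one was among the highest in tomato and that of the other had no count. The capitals mark the seed, bases 2 to 8 counted from the 5′ end.
miR482f: uCUUUCCUacuccacccauucc
miR482c-5p: gGAAUGGGcuguuugggaug
These are the seeds CUUUCCU and GAAUGGG. The second sequence is the 5p arm of miR482c, and the counts of its gene do not separate the arms. miR482f (22 nt, peach chromosome G1) had 3384 counts in tomato and was the 6th highest gene. MIR482c (G3) had 0 counts, which at this depth allows a share of up to 0.00331%.

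Tomato had 90651 miRNA counts, the third highest total of the 8, in a range from 39249 in walnut to 212021 in apple. The 3 highest genes were MIR162 (25252 counts), MIR166b (14218) and MIR396 (13886), and together they held 58.9% of the counts. The profile was steep below them: 7 genes held 90% of the counts and 19 held 99%. There were 10 genes with 1000 or more counts (95.8% of the total), 8 with at least 100 but under 1000 (3.17%) and 26 with 10 to 99 (0.855%). The remaining 62 genes had 1 to 9 counts and held 0.203%. At a common depth of 39249 counts the mean number of tomato genes was 87.8, against 116.6 in almond, 90.8 in olive, 87.9 in orange and 86.0 in pear. Walnut had 68, apple 66.3 and spinach 64.4.

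The family that set tomato apart was miR164, whose targets are NAC transcription factors. It had 9722 counts in tomato, 10.7% of the library (95% interval 10.5 to 10.9). The share was 4.05% in orange (2714 counts), 2.12% in apple (4496) and 1.39% in pear (1517). It was 0.0455% in spinach (25 counts), 0.0306% in walnut (12), 0.0175% in almond (10) and 0.0104% in olive (7). Tomato, orange, apple and pear thus lay far above spinach, walnut, almond and olive, and tomato was 2.65 times the next food. In the deposited normalized reads the order of tomato and orange turned, with tomato at 0.829 of orange. Tomato was the highest of the 8 foods in shares, with edgeR TMM factors, with DESeq2 poscounts factors, and when the 3 highest genes of each library were left out of the denominator. Of 51 families with at least 10 counts in a library, this was the only one (1.96%) whose tomato share lay above all 7 others with intervals apart.

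All 4 annotated miR164 genes were counted in tomato. MIR164a (ENSRNA049997029, peach NCBIv2 chromosome G6 from 26574904 to 26575067, + strand, annotated as a miRNA gene exon) had 9034 counts, or 9.97% of the library (9.77 to 10.2). It had 4442 counts in apple, 1491 in pear, 639 in orange, 22 in spinach, 7 in walnut, 6 in olive and 0 in almond. This was the 5th highest gene of tomato. The share of the whole family was 236 times the median of the other foods, which was the spinach share (0.0455%, 25 counts). With a food left out, the fold over the median ran from 14.9 to 282. It was 14.9 without almond, olive or walnut and 15.1 without spinach, where the median lay between the high and the low foods. MIR164b (G8, 22112016 to 22112150, - strand) had 434 counts in tomato, 749 in orange, 36 in apple, 10 in almond and 0 in the remaining 4 foods. MIR164c (G6, 28330451 to 28330582, + strand) had 228 counts in tomato and 1310 in orange, and at most 16 in any other food. MIR164d (G3, 2645966 to 2646073, - strand) had 26 counts in tomato, 16 in orange, 15 in apple and 10 in pear, so its tomato share of 0.0287% (0.0187 to 0.0420) and the orange share of 0.0239% could not be told apart. Tomato and orange were thus the only foods with over 100 counts on MIR164b or MIR164c. By share tomato was lower than orange on MIR164b (0.479% against 1.12%) and on MIR164c (0.252% against 1.95%). It was higher on MIR164a (9.97% against 0.953%).

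The division of a family over its peach copies does not depend on the scaling of the library. In tomato 92.9% of the miR164 counts were on MIR164a (92.4 to 93.4), 4.46% on MIR164b and 2.35% on MIR164c. MIR164a took 98.8% in apple and 98.3% in pear, which are Rosaceae as peach is. Almond, of the same genus as peach, went the other way on few reads. It had 0 counts on MIR164a, and all of its 10 miR164 counts were on MIR164b. Whether kinship with peach set the copy was not tested. In orange MIR164a took 23.5%, with 48.3% on MIR164c and 27.6% on MIR164b. The tomato division was therefore nearer to that of apple and pear than to that of orange.

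**Figure D1:**
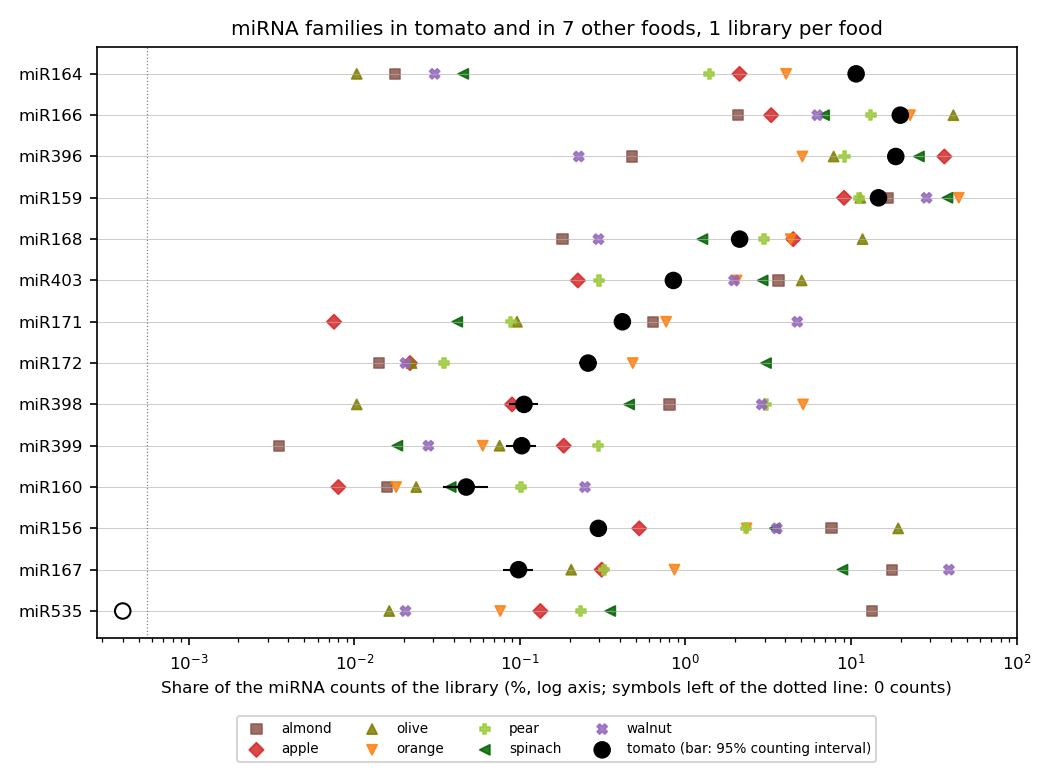
Shares of 14 miRNA families (percent of the miRNA counts of the library, log axis) in tomato (black, bar: 95% counting interval) and in the 7 other foods, 1 library per food. miR164 is highest in tomato, at 10.7% against 4.05% in orange (second to orange in the deposited normalized reads), while miR156 (7th of 8 there), miR167 and miR535 are lowest in tomato.

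At the other end, 3 families had a tomato share below that of every other food with intervals apart (5.88% of the 51 families): miR156, miR167 and miR535. miR156 and miR535 have SPL factors as targets, and miR167 targets auxin response factors. miR156 had 270 counts in tomato, a share of 0.298% (0.263 to 0.336). The lowest other food was apple, with 0.526% (1115 counts). Pear had 2.31%, orange 2.34%, spinach 3.46%, walnut 3.56%, almond 7.62% and olive 19.2%. Tomato was 11.6-fold below the median food. In the deposited normalized reads tomato was 7th of 8, at 1.35 times the lowest food, and it was the lowest on the other scales that were run.

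Within miR156 the tomato counts lay on other peach copies than in most foods. The gene named mir-156 (ENSRNA050003808, G7 from 21693889 to 21693971, + strand) had 209 counts in tomato, 77.4% of the family (71.9 to 82.3). It took 84.3% in walnut (1178 counts), 17.7% in spinach (337), 8.10% in orange (127), 2.33% in almond (101) and 0.223% in olive (29), with 1 count in pear and 0 in apple. MIR156e (ENSRNA049996234, G1 from 34960231 to 34960314, + strand) had 0 counts in tomato. It held 5.90% of the miRNA counts in almond, 1.92% in spinach, 1.77% in pear, 0.423% in walnut, 0.233% in apple, 0.128% in orange and 0.111% in olive. MIR156e held 77.4% of the family in almond and 76.5% in pear, so the copy with most miR156 counts in those foods had none in tomato. MIR156c was also at 0 in tomato, with 118 counts in almond, 116 in olive and 12.6% of the family in pear. MIR156b had 5 counts in tomato and 11859 in olive, and MIR156f had 2 in tomato and 681 in orange. Of the remaining counts, 37 were on MIR156h and 16 on MIR156i.

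miR535 had 0 counts in tomato and was counted in all the others, with 7649 in almond, 282 in apple, 254 in pear, 193 in spinach, 51 in orange, 11 in olive and 8 in walnut. Most of it lay on MIR535b (G8, 18430310 to 18430438, + strand). The tomato share was at least 40.2-fold below the median food by the limit of 3 counts. In walnut and olive the family was itself near that limit, so the difference from those foods rests on few reads.

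miR167 had 89 counts in tomato, a share of 0.0982% (0.0789 to 0.121). It was 0.204% in olive, 0.312% in apple, 0.323% in pear, 0.858% in orange, 8.87% in spinach, 17.6% in almond and 39.0% in walnut. Tomato was below every other food under each scaling that was run. MIR167d had 21 counts in tomato against 12733 in walnut and 4189 in almond, and MIR167c had 14 against 5769 in almond and 4368 in spinach. MIR167b had the most counts of the family in tomato, 46.

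The opposed places of miR164 and miR156 can be read from ratios of counts within a library, which no scaling changes. These ratios were chosen after the values had been seen. With miR164 highest and miR156 lowest in tomato by share, the ratio of miR164 to miR156 had to be highest there. Tomato had 36.0 miR164 counts for each miR156 count (95% interval 31.9 to 40.8). The ratio was 4.03 in apple (3.78 to 4.31), 1.73 in orange (1.63 to 1.84) and 0.601 in pear (0.564 to 0.641). It was 0.0132 in spinach, 0.00859 in walnut, 0.00230 in almond and 0.000538 in olive. No interval of another food reached that of tomato, which adds nothing beyond the shares. miR172, the AP2 regulator, had 0.867 counts for each miR156 count in tomato (0.724 to 1.04) and 0.885 in spinach (0.829 to 0.946), so these libraries could not be told apart by this ratio. Orange had 0.205 (0.182 to 0.232), and the ratio was 0.0413 in apple, 0.0151 in pear, 0.00573 in walnut, 0.00184 in almond and 0.00115 in olive.

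**Figure D2:**
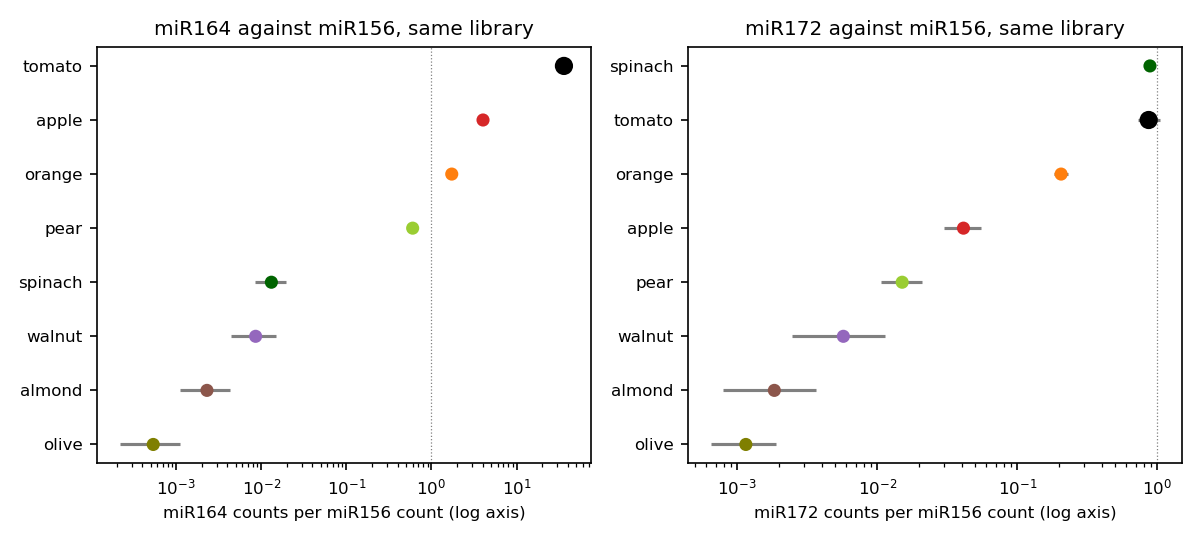
Counts of miR164 (left) and miR172 (right) per count of miR156 in the same library, on log axes, with 95% counting intervals as bars, 1 library per food. Tomato is highest for miR164, as its shares fix in advance, at 36.0 against 4.03 in apple. It lies beside spinach for miR172, at 0.867 and 0.885.

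miR172 itself had 234 counts in tomato, 0.258% of the library (0.226 to 0.293). Spinach had 3.06% (1683 counts) and orange 0.480% (322), and the other 5 foods had from 0.0140% in almond to 0.0349% in pear. Tomato was thus the third of the 8 foods by share (4th in the deposited normalized reads), well above a group of 5 foods with 8 to 46 counts. In tomato 56.4% of the family was on MIR172c (G6, 4926841 to 4927008, - strand), 35.5% on MIR172a and 8.12% on MIR172d. MIR172c had 132 counts in tomato, 1429 in spinach and 9 or fewer elsewhere. MIR172a had 83 in tomato, 163 in orange and 23 or fewer elsewhere. The copy that led in spinach was MIR172c, with 84.9% of the family. In orange MIR172a took 50.6% (45.0 to 56.2) and MIR172d 47.2% (41.6 to 52.8), so neither clearly led. The tomato library therefore held the leading copy of spinach and, of the main copies of orange, chiefly MIR172a.

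Among single genes, 114 had at least 10 counts in a library. Of these, 4 (3.51%) had a tomato share above all 7 other foods with intervals apart: MIR166b, MIR164a, MIR166c and MIR395i. Below all 7 were 2 (1.75%), MIR156e and MIR535b. The same count of genes above all others was 29 in almond, 16 in orange, 13 in olive, 12 in walnut, 11 in pear, 7 in apple and 3 in spinach. Tomato thus led in few genes, and only spinach led in fewer. MIR164a and MIR166b kept their place above and MIR156e and MIR535b their place below under every scaling and with each other food left out. MIR166c lost it under all 4 other scalings, and MIR395i lost it in the deposited normalized reads. Without orange 8 genes lay above, the added ones being MIR164b, MIR164c, MIR164d and MIR172a.

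Against the median of the other foods, 20 genes (17.5% of the 114) were at least 4-fold higher in tomato and 14 (12.3%) at least 4-fold lower. Among the higher genes, the median food had 3 or fewer counts for MIR482f, MIR164b, MIR164c, MIR166c, MIR172c, MIR1511, MIR858, MIR395i, MIR171g and MIR159 ENSRNA050004107. The sizes of their folds thus rest on the limit of 3 counts or on few reads in the median food. The median log2 fold of the 114 genes was -0.44. It was -0.90 without the 3 highest genes, -1.09 with TMM, -2.11 in the deposited normalized reads and 0.18 with poscounts, so these counts depend on the scaling. The split of higher to lower was 18 to 15, 16 to 34, 7 to 72 and 24 to 13 in that order of settings. Of the 20 genes, 18 stayed over the median in the deposited normalized reads and 20 on the other scales; MIR166a and MIR399a were the exceptions. All of the 14 lower genes stayed under it on each scale.

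miR166, which targets HD-ZIP III factors of leaf polarity and vascular tissue, was the second family of tomato, with 17962 counts or 19.8% (19.6 to 20.1). Olive had 41.5%, orange 22.7%, pear 13.1%, spinach 6.87%, walnut 6.25%, apple 3.29% and almond 2.08%. Tomato was 2.88 times the median food, but 0.648 of it in the deposited normalized reads. The copy that took the reads differed from food to food. MIR166b (ENSRNA049997204, G8 from 20544987 to 20545082, + strand) held 15.7% of the tomato counts (15.4 to 15.9), against 7.47% in pear, 6.39% in spinach, 2.41% in olive, 1.77% in walnut, 1.23% in apple, 0.400% in almond and 0.118% in orange. It took 79.2% of the family in tomato (78.6 to 79.7), 92.9% in spinach and 57.0% in pear. In the foods with the largest miR166 shares it took little, 5.81% in olive and 0.519% in orange, where MIR166a led with 15712 and 14595 counts. MIR166a had 1231 counts in tomato, MIR166d 1719 and MIR166e 583. MIR166c (G2, 29691966 to 29692143, + strand) had 211 counts in tomato, 275 in apple, 59 in olive, 10 in pear, 4 in orange and 0 in almond, spinach and walnut.

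**Figure D3:**
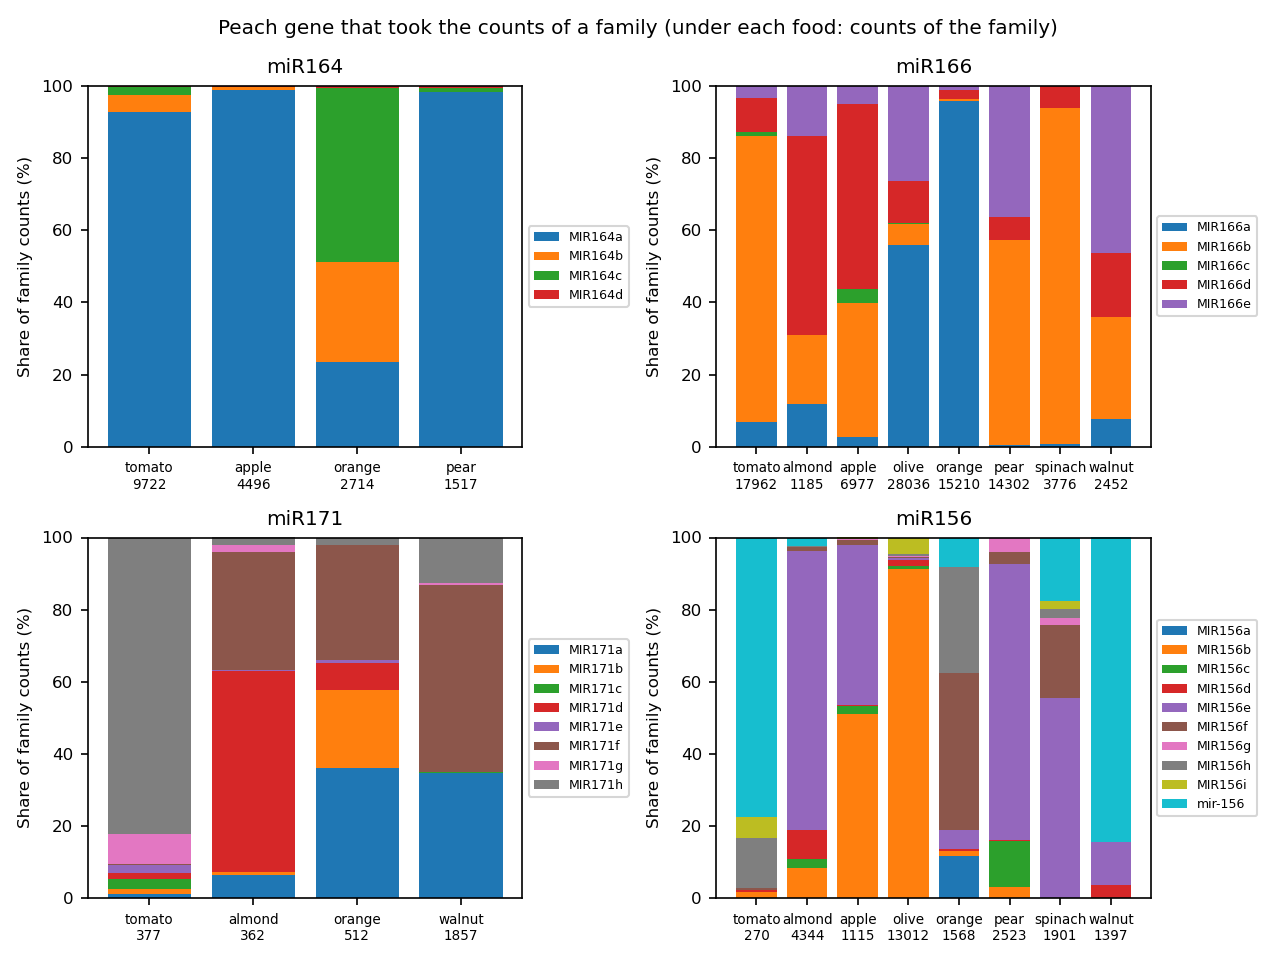
Share of the counts of miR164, miR166, miR171 and miR156 on each peach gene of the family (bars sum to 100%), for foods with at least 100 counts of the family, whose number is printed under each food. In tomato MIR164a, MIR166b, MIR171h and mir-156 hold 92.9%, 79.2%, 82.2% and 77.4% of their families.

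miR171, which targets GRAS factors of the HAIRY MERISTEM group, had 377 counts in tomato, 0.416% (0.375 to 0.460). The share was 4.73% in walnut, 0.764% in orange, 0.635% in almond, and from 0.00755% to 0.0961% in the other 4 foods. Tomato was 4.33 times the median, 1.14 times without apple, pear or spinach, 1.15 times without olive, and 0.979 of it in the deposited normalized reads. Most of it was on 1 copy. MIR171h (G3, 21868080 to 21868206, + strand) had 310 counts in tomato, 233 in walnut, 24 in pear, 10 in orange, 8 in almond, 1 in olive, 1 in spinach and 0 in apple. It took 82.2% of the tomato family (78.0 to 86.0), but 12.5% in walnut, 2.21% in almond and 1.95% in orange. MIR171g followed in tomato with 31 counts. All 8 annotated miR171 genes had at least 1 count in tomato.

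miR396, which targets growth-regulating factors, held 18.6% of the tomato counts, against 36.6% in apple, 25.7% in spinach, 9.12% in pear, 7.84% in olive, 5.08% in orange, 0.475% in almond and 0.227% in walnut. The highest copy, MIR396, took 82.3% of it. MIR396b, which lies 4797 bp from MIR396 on the opposite strand of G7, had 2972 counts in tomato (3.28%), 3054 in spinach (5.56%) and 2605 in olive (3.85%). It had 525 counts in pear, 259 in apple, 187 in orange, 50 in almond and 4 in walnut. Tomato, spinach and olive thus formed a high group for MIR396b.

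miR159 targets MYB factors of the GAMYB type. Its leading gene, MIR159 ENSRNA049996936, had 13199 counts in tomato, 14.6% of the library (14.3 to 14.8), and was the 4th highest gene. It was between the extremes in tomato: apple had 8.54%, pear 9.57%, olive 10.5%, almond 13.3%, walnut 26.8%, spinach 38.1% and orange 43.5%. Of the tomato miR159 counts 99.5% were on this gene. A different MIR159 gene, ENSRNA050003605, had 0 counts in tomato and in walnut, with 1.11% of the library in pear, 0.689% in olive, 0.192% in apple, 0.104% in orange, 0.0421% in almond and 0.00728% in spinach. MIR159 ENSRNA050003181 had 15 counts in tomato, against 677 in almond and 579 in walnut, and MIR159 ENSRNA050004107 had 39, against 314 in orange and 11 or fewer elsewhere.

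Families that act on the small RNA pathway itself held 30.8% of the tomato counts, most of it MIR162, which targets DICER-LIKE1. MIR168, which targets ARGONAUTE1, had 1924 counts in tomato or 2.12% (2.03 to 2.22), 5th of the 8 foods by share, with olive highest at 11.7% and almond lowest at 0.181%. MIR403, which targets ARGONAUTE2, had 766 counts or 0.845% (0.786 to 0.907), 6th by share, with 5.03% in olive and 0.224% in apple. Without the 3 highest genes of each library the group held 7.21% in tomato, against a median of 12.5% in the others.

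**Figure D4:**
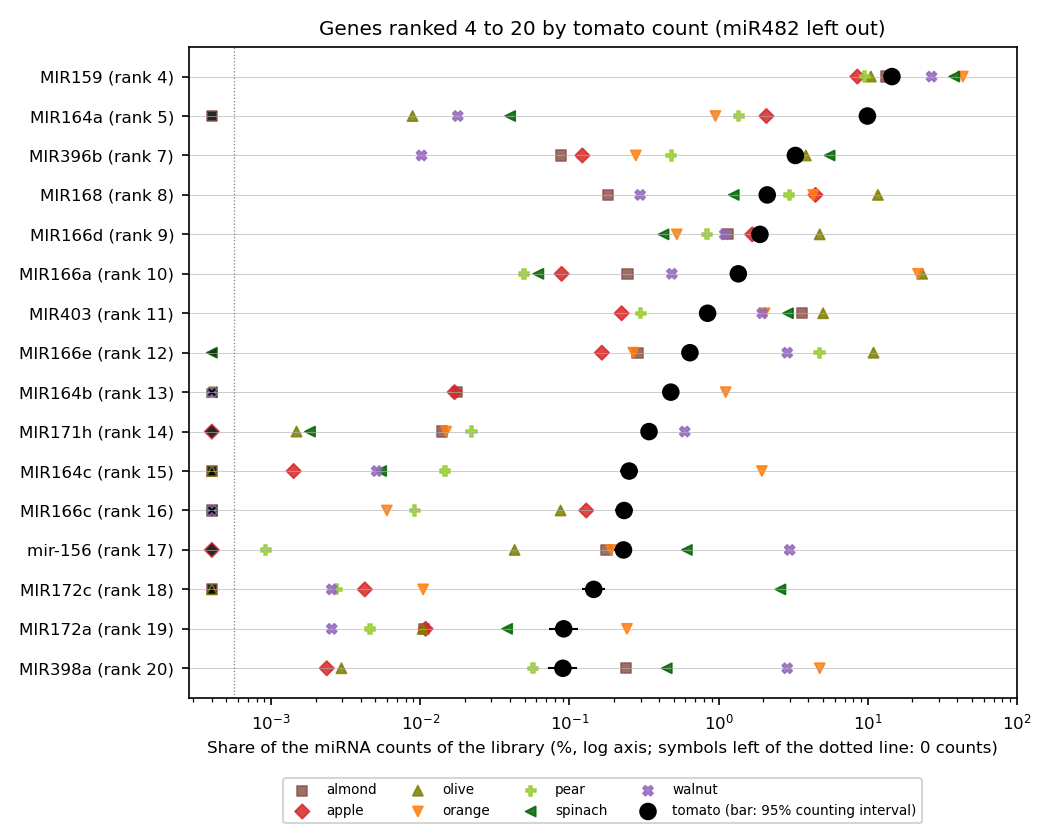
Share of the miRNA counts of the library (percent, log axis) for the 16 genes ranked 4 to 20 in tomato without miR482, in tomato (black, bar: 95% counting interval) and in the 7 other foods, 1 library per food. MIR159 is ENSRNA049996936. Tomato is highest for MIR164a and MIR166c (the latter not on the other scales) and second for 6 genes.

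The genes ranked 4 to 20 without miR482 were 16 in number and held 36.5% of the tomato counts. By share, tomato was the highest food for 2 of them, the second for 6, in 3rd or 4th place for 5, and in 5th to 8th place for 3. Those in the lower places were MIR168, MIR403 and MIR398a. The second places were held by MIR166d, MIR164b, MIR164c, MIR171h, MIR172c and MIR172a. The food above tomato was olive for MIR166d, orange for MIR164b, MIR164c and MIR172a, walnut for MIR171h and spinach for MIR172c.

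The nutrient families held few of the tomato counts. miR398, which targets copper superoxide dismutase mRNAs, had 96 counts or 0.106% (0.0858 to 0.129), against 5.13% in orange, 3.06% in pear, 2.89% in walnut, 0.800% in almond, 0.457% in spinach, 0.0896% in apple and 0.0104% in olive. Its main copy in tomato was MIR398a, with 82 counts. The MIR398 gene ENSRNA050003695 had 7 counts in tomato (0.00772%), against 0.280% in pear, 0.202% in almond, 0.163% in orange, 0.0873% in apple and 0.00364% in spinach, and 0 counts in olive and walnut. miR399, which targets the phosphate regulator PHO2, had 93 counts or 0.103%, with MIR399a at 66, and its family share was 1.72 times the median but 0.748 of it in the deposited normalized reads. miR395, which targets ATP sulfurylase and a sulfate transporter, had 82 counts or 0.0905%, with the highest share in olive (0.314%) and the lowest in walnut (0.00764%). MIR395c and MIR395i lie 69 bp apart on the - strand of G1 and had 33 counts each in tomato. MIR395i (G1, 27764456 to 27764573) had 4 counts in orange, 3 in pear, 2 in almond and 0 in the other 4 foods, while MIR395c had 47 in olive and 28 in apple.

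A list of 47 genes was drawn from families whose targets are known regulators of tomato fruit development or ripening: miR156, miR159, miR160, miR164, miR167, miR168, miR171, miR172 and miR396. It held 47.2% of the tomato counts (46.9 to 47.5), against a median of 53.1% in the other foods and a range from 27.5% in pear to 80.6% in spinach. Without miR164 it held 36.5%. When the 3 highest genes of each library were left out, the list held 77.5% in tomato, above all the others, whose range was 25.8% to 67.1%. Of its 42 genes with at least 10 counts in a library, 1 lay above all 7 others (MIR164a), 1 below (MIR156e), 10 at least 4-fold above the median and 8 at least 4-fold below. Over all 114 genes, list included, these calls were made for 3.51%, 1.75%, 17.5% and 12.3%. The median log2 fold of the list was -0.23, beside -0.44 for all 114 genes. The latter is the fold of genes at the limit of 3 counts, so the pair is no measured contrast. miR160, an auxin response factor regulator on the list, had 43 counts in tomato, a share of 0.0474% over a median of 0.0237%, but was at 0.454 of the median in the deposited normalized reads. Members of the list thus lay at both ends, and the place of its sum depended on the 3 highest genes and on miR164.

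**Figure D5:**
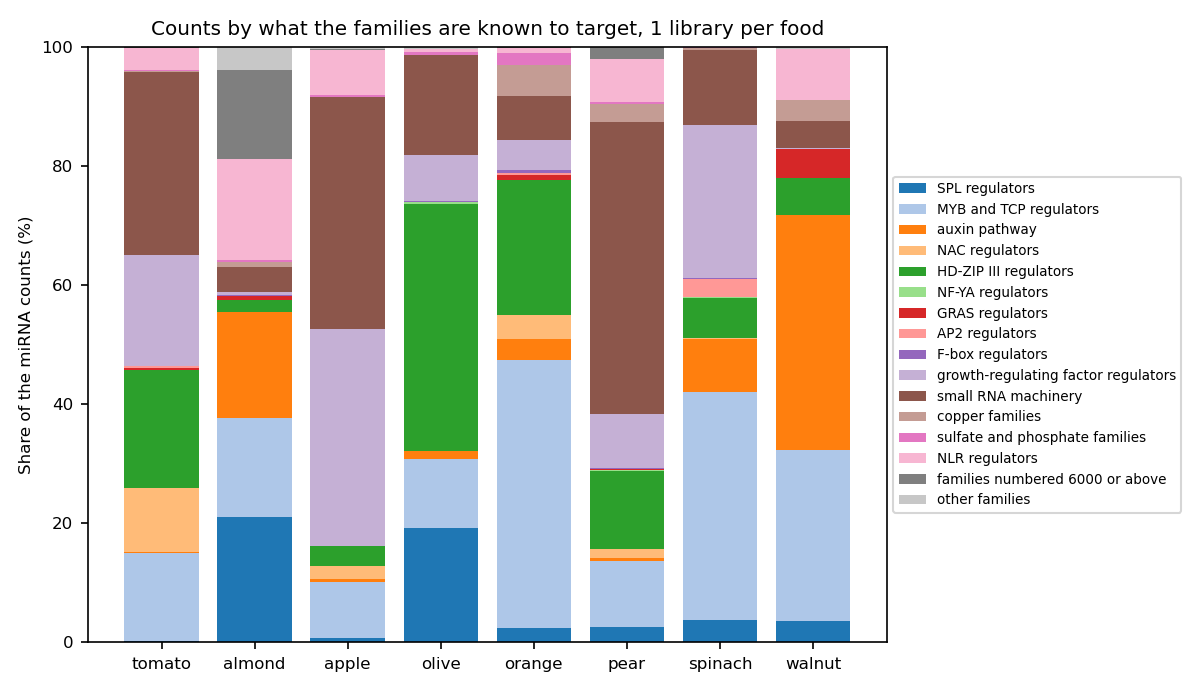
Percent of the miRNA counts of each library on families grouped by their known targets in plants, 1 library per food. In tomato the NAC regulators (miR164) hold 10.7%, the HD-ZIP III regulators 19.8% and the small RNA machinery 30.8%, while the SPL regulators hold 0.298% and the auxin pathway 0.186%.

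By target group, the auxin pathway families (miR160, miR167, miR390 and miR393) held 0.186% of the tomato counts (0.159 to 0.217), and the others ranged from 0.519% in pear to 39.5% in walnut. The SPL regulators held 0.298%, with 0.659% in apple as the lowest other food and 21.0% in almond as the highest. By share, tomato was thus the lowest food for both of these groups, and the highest for the NAC regulators. F-box regulators (miR394) had 5 counts in tomato, a share of 0.00552% (0.00179 to 0.0129). Apple, at 0.00330% (0.00133 to 0.00680), could not be told apart from it. The remaining foods were higher, up to 0.427% in orange. MIR394a had 2 of the tomato counts (0.00221%), against 0.00236% in apple and 0.248% in orange.

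Families numbered 6000 or above, most of them described in few species, had 55 counts in tomato on 22 of 65 annotated genes, or 0.0607% of the library. They held 14.96% in almond, 1.98% in pear, 0.101% in orange, 0.0621% in olive, 0.0458% in apple, 0.0204% in walnut and 0.0164% in spinach, so tomato lay in the middle of the foods. The highest in tomato were MIR8126 and MIR6284, with 10 counts each, and 17 of the 22 had 1 or 2 counts. Only 4 genes were counted in tomato and in no other food: MIR6269 with 2 counts, and MIR169d, MIR6262 and mir-399 (ENSRNA050004140) with 1 each. None of these reached the limit of 3 counts. A further 7 genes with 1 count in tomato had 100 or more counts in another food. MIR7122a was one of them, with 6821 counts in almond and 1644 in pear, and whether such single reads came from other libraries was not tested.

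At 0 counts in tomato with 100 or more counts in at least 3 other foods were 5 genes: MIR156e, MIR535b, MIR482c, MIR156c and MIR159 ENSRNA050003605. The first 3 of these were counted in all 7 other foods. The same pattern, 0 in the food and counts in all others, was found for 5 genes in spinach, 4 in walnut, 3 in apple, 2 in almond, 1 in pear and 0 in olive and orange. Tomato was therefore within the range of the other foods in this respect.

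As a whole the tomato profile was most like those of pear and apple by shared share, the sum over genes of the lower of both shares. It was 59.9% with pear, 59.8% with apple, 51.4% with spinach, 29.2% with orange, 27.7% with olive, 25.4% with walnut and 21.7% with almond. With the 3 highest tomato genes removed from every library, the order became orange (51.6%), apple (50.8%), spinach (50.0%), pear (41.1%), walnut (38.0%), olive (33.0%) and almond (27.8%). The order of the foods by likeness to tomato thus depended on MIR162, MIR166b and MIR396. Spearman's rho over genes with at least 10 counts in either library was highest with orange, at 0.33 over 68 genes. These genes share libraries and are not independent. The choice lets in genes that are high in either library alone and drops genes low in both, which can lower rho. Ranks therefore could not decide how like tomato the other foods were.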

How the data were processed

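Per the methods of the study, skewer removed the adapters and reads between 15 and 30 bases long were kept. ShortStack placed them on peach NCBIv2 with the annotation of miRBase 22, allowing up to 2 seed mismatches. HTSeq, run by strand, gave the counts that the authors deposited for 209 genes in 8 libraries. DESeq2 gave the second deposited table, a signal made by the authors from those counts with 1 factor per library. The submitters' processing notes name HTSeq and DESeq2 too. No version of any of these tools was at hand.

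Shares of the column total were computed per gene and family, with exact Clopper-Pearson 95% intervals. Totals ran from 39249 to 212021 counts, so 1 count was 0.00110% of the tomato library. A count of 0 was set to a limit of 3 counts in folds, and so were counts under 3. Genes with at least 10 counts in a library entered the comparisons. No test between foods was run. Scaling alternatives were the deposited normalized reads, edgeR TMM factors, DESeq2 poscounts factors and totals without the 3 highest genes, and each other food was left out in turn. Other minimums (1, 3 and 30 counts) and folds (2 and 10) were also used. The removal of the 3 highest tomato genes from the likeness was added after seeing the data.

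The genes named were those ranked 4 to 20 in tomato without miR482, those above or below all other foods, the 10 largest on each side of the 4-fold count, those counted in tomato alone, those at 0 in tomato with at least 100 counts in 3 other foods, and families with at least 0.1% of the counts or on the fruit list. Further copies of these families, MIR399a, the miR395 genes other than MIR395i, MIR7122a, MIR8126 and MIR6284 were named after their values were seen. Members and lists were chosen with earlier results of these data known. Families were sorted by textbook targets. The sequences came from the supplement of the study. Software: Python 3.11.15 (scipy 1.17.1, pandas 2.3.3, numpy 2.4.6, matplotlib 3.10.9) and R 4.3.3 (DESeq2 1.42.0, edgeR 4.0.16).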

Additional observations from a re-analysis of the deposited data

How the results depend on the processing

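No paired analysis was possible because each food had 1 library. Depth limits the 62 tomato genes under 10 counts: 70 genes had at least 3 counts and 44 at least 10, against 106 with 1. In the deposited normalized reads 2 genes lay above all other foods instead of 4, 0 families instead of 1, and 7 genes were at least 4-fold above and 72 at least 4-fold below the median, instead of 20 and 14. The 72 include genes with no reads in tomato and none in the median food, whose fold the limit of 3 counts and the library factors set. With TMM 34 were 4-fold below. A fold of 2 gave 31 above and 31 below, and a fold of 10 gave 9 and 9. With a food left out, the genes above all others ran from 4 to 8 (8 without orange), those below from 2 to 3, those 4-fold above from 18 to 20, those 4-fold below from 13 to 23 (23 without apple or without spinach), the families above from 1 to 2 (2 without almond, adding miR1511) and the families below from 3 to 4. The miR164 fold over the median, 236, ran from 14.9 to 282 with a food left out because the median food changed, and was 23.5 in the deposited normalized reads, 191 without the 3 highest genes, 197 with TMM and 487 with poscounts. The fruit list held 77.5% without the 3 highest genes and 65.4% without the highest. Directions against the median turned for miR159 (0.877, from 0.647 to 1.04 with a food left out, 1.04 without orange, spinach or walnut, 0.291 in the deposited normalized reads and 0.372 with TMM) and, in the deposited normalized reads, for miR160 (0.454), miR166 (2.88 to 0.648), miR171 (4.33 to 0.979) and miR399 (1.72 to 0.748). The cause of these changes was not tested. The folds of miR156, miR162, miR164, miR167, miR168, miR172, miR396, miR398, miR403 and miR535 kept their direction under the alternatives run. For miR168 the fold was 0.999 without apple, olive or orange, which is no difference from the median. For miR396 it was 1.15 in the deposited normalized reads and with TMM.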
